A study of Homo sapiens with 18 samples.

Results

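The 9 genes described here belong to blood clotting and clot removal and were taken by symbol from a matrix of estimated counts that lists 62754 genes. They are F3 (tissue factor), TFPI and TFPI2 (tissue factor pathway inhibitors), THBD (thrombomodulin), PROCR (the endothelial protein C receptor), PROS1 (protein S), PLAT (tissue plasminogen activator), PLAU (urokinase) and PLAUR (the urokinase receptor). All 9 were found and all 9 passed the filter on low counts. The cells were EA.hy926, a human line made by fusing umbilical vein endothelial cells with the lung epithelial line A549, so all samples come from 1 line. Mock cells received the transfection reagent alone, siNT cells a non-targeting siRNA at 10 nM, and siELMO1 cells a pool of siRNAs against ELMO1 at 10 nM, and every group was starved of serum before sampling. RNA was taken 48 h after transfection, called 0 h, or following 24 h of exposure to 1 μg/ml poly(I:C), a synthetic double-stranded RNA that activates TLR3. Each of the 6 groups had 3 libraries, which the study describes as biological replicates. No group was kept for the further 24 h without poly(I:C), so the effects of poly(I:C) and of the added time in culture cannot be told apart, and "response" below means 24 h against 0 h. The study reports massive cell death in siNT after poly(I:C), and much less in the other transfections. The siNT values after poly(I:C) therefore come from a group with many dying cells. The part of this death in those values was not tested for any gene.

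Resting endothelium keeps blood fluid. Tissue factor starts clotting by binding factor VII, and TFPI shuts that complex down. Thrombomodulin turns thrombin from a clotting enzyme into an activator of protein C, the endothelial protein C receptor presents protein C to it, and protein S is the cofactor of the activated enzyme. Tissue plasminogen activator and urokinase, the latter held at the surface by its receptor, make plasmin, which dissolves fibrin. Inflamed endothelium is known for gaining tissue factor and losing thrombomodulin.

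The estimated counts of a library summed to between 40.4 and 73.9 M. ELMO1 itself was at 2.66 to 3.32 CPM (counts per 1 M counts of the library, scaled with TMM factors) in the Mock and siNT libraries at 0 h and at 1.52 to 3.58 CPM in those at 24 h. In the 6 siELMO1 libraries it was at 0.155 to 0.419 CPM. Of 11 endothelial markers, 9 were above 1 CPM in every group and CLDN5 and EMCN were not. Their summed level was 1993 to 2095 CPM in siELMO1 at 0 h, against 1300 to 1415 CPM in Mock and 1475 to 1558 CPM in siNT. At 24 h it was 1973 to 2353 CPM in siELMO1, 1156 to 1424 CPM in Mock and 1419 to 1586 CPM in siNT. The endothelial markers did not all move alike. At 0 h the means of CDH5 were 776 CPM in siELMO1, 438 CPM in siNT and 353 CPM in Mock. PECAM1 (224 against 314 CPM) and EGFL7 (208 against 311 CPM) were lower in siELMO1 than in siNT at 0 h. The epithelial markers KRT7, KRT8 and KRT18 were expressed as well and CDH1 was listed at 0. The 7 epithelial markers summed at 0 h to 1516 to 1538 CPM in Mock, 1879 to 1911 CPM in siNT and 2100 to 2223 CPM in siELMO1. At 24 h their sums were 842 to 861, 1010 to 1056 and 1098 to 1314 CPM in that order. The epithelial sum was thus also highest in siELMO1 at both times. The 5 leukocyte markers summed to 35.7 to 100 CPM at 0 h and to 140 to 285 CPM at 24 h, nearly all of it CD68, while PTPRC, CD14 and CD3E stayed under 1 CPM. The 6 fibroblast and smooth muscle markers summed to at most 2.39 CPM and the 5 platelet markers to at most 1.9 CPM. The part of these shifts in the results on the clotting genes was not tested, and in bulk RNA fewer cells of a type and less RNA per cell cannot be told apart. One library, siELMO1 at 0 h replicate 1, stood apart from its group, with a chi-square per degree of freedom of 60.4 and 67.1 against the other two, where other replicate pairs had 9.41 to 25.4. Leaving it out ended no call on the 9 genes.

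Before poly(I:C) the protein C receptor had the highest level for its length. In Mock at 0 h PROCR was at 396 ± 15.8 TPM (a level per transcript length, computed from the deposited transcript counts, mean ± SD, n = 3), followed by TFPI at 209 ± 4.02, PLAU at 167 ± 5.72, PLAUR at 151 ± 2.58, THBD at 130 ± 4.42 and PLAT at 96.0 ± 5.95 TPM. PROS1 at 24.2 ± 0.649, TFPI2 at 5.41 ± 0.0523 and F3 at 1.2 ± 0.162 TPM came last, and no neighbours in this order overlapped. After poly(I:C) the order changed at the top. In Mock at 24 h PLAU was at 388 ± 27.7 TPM, PLAUR at 372 ± 27.0 TPM and PROCR at 322 ± 27.7 TPM, and each of these overlapped the next. In siNT at 24 h PLAU reached 644 ± 29.1 TPM, ahead of PLAUR at 441 ± 10.5 TPM and PROCR at 411 ± 37.7 TPM, which overlapped each other, and PLAT was at 343 ± 30.7 TPM. In siELMO1 at 24 h PROCR was at 487 ± 26.5 TPM and PLAU at 434 ± 45.5 TPM, without overlap. At 0 h PROCR also led in siNT (365 ± 7.99 TPM) and in siELMO1 (516 ± 26.3 TPM), where PLAT and THBD, and PLAT and PLAUR, respectively, were the neighbours that overlapped. F3 was the lowest of the 9 in every group, with at most 8.56 ± 0.409 TPM.

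**Figure D1:**
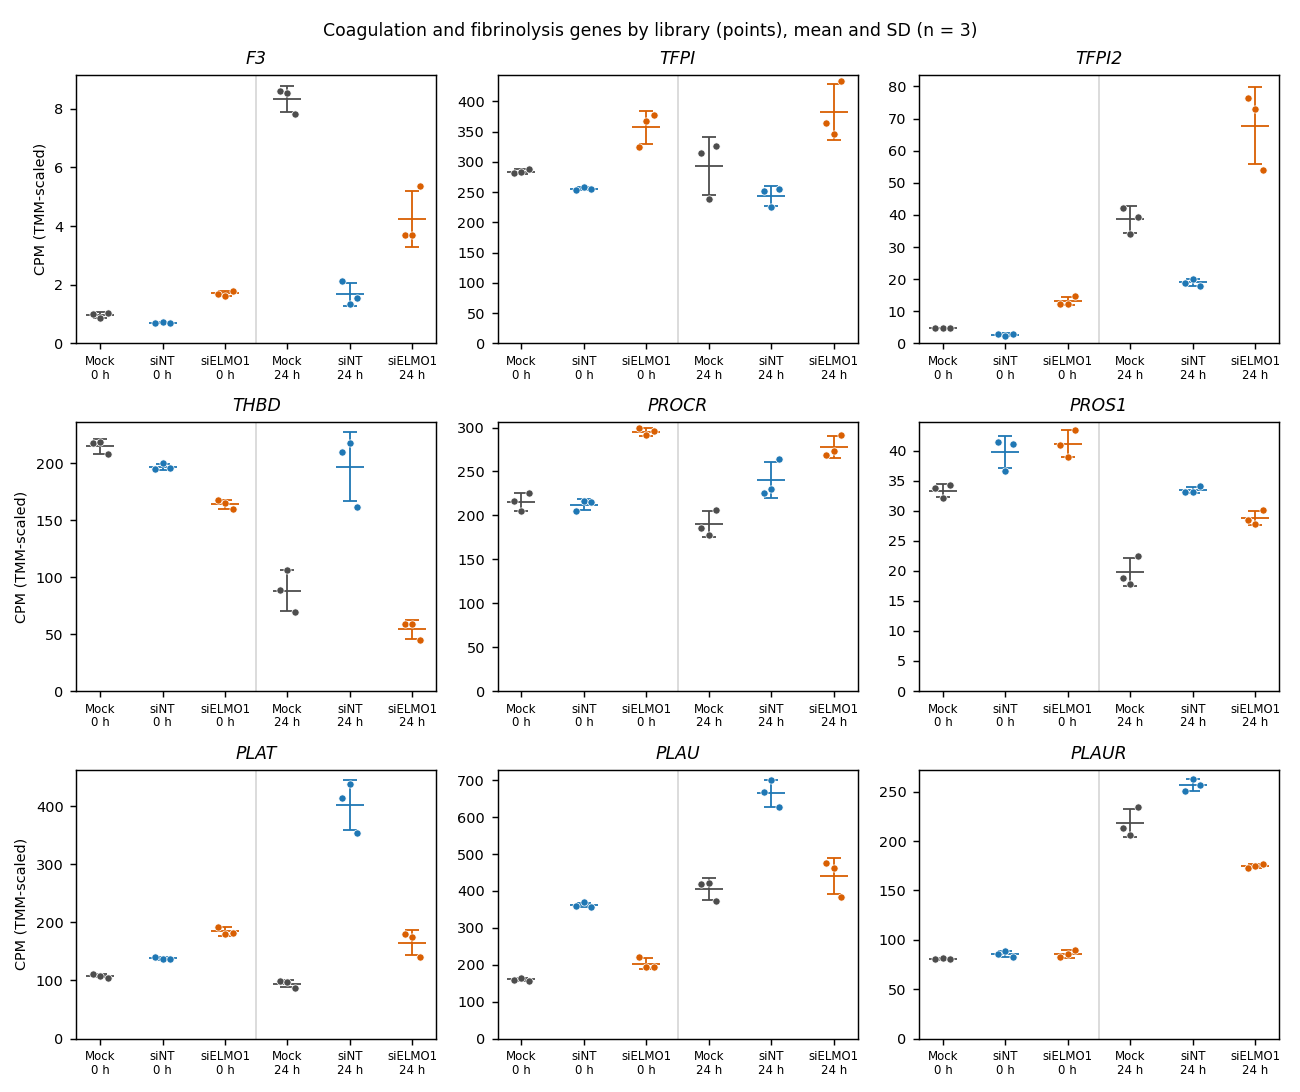
CPM of each of the 9 genes in the 18 libraries, with 1 panel per gene and 6 groups per panel; points are libraries, horizontal lines the group mean and bars the SD (n = 3), and every axis starts at 0. PLAT stands out in siNT at 24 h (354 to 438 CPM), where THBD lies at 162 to 218 CPM while it lies at 44.4 to 106 CPM in the other two groups at 24 h.

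Tissue factor rose after poly(I:C) in all 3 transfections, and most in Mock. F3 (ENSG00000117525.14, GRCh38 chr1:94529173-94541759, minus strand) was at 1.01, 0.864 and 1.05 CPM in Mock at 0 h against 8.62, 8.54 and 7.82 CPM at 24 h, a rise of 3.09 on the log2 scale (SE 0.19, adjusted p = 1.6e-10). The siNT values were 0.701, 0.722 and 0.688 CPM at 0 h against 2.12, 1.34 and 1.56 CPM at 24 h (log2 1.24, SE 0.19, adjusted p = 2.9e-05). The siELMO1 values were 1.70, 1.63 and 1.80 CPM at 0 h against 3.70, 3.71 and 5.35 CPM at 24 h (log2 1.31, SE 0.18, adjusted p = 7.7e-06). At each time the 3 transfections did not overlap. The rise in Mock exceeded that in siNT by 1.85 on the log2 scale (SE 0.26, adjusted p = 4.0e-05) and that in siELMO1 by 1.78 (SE 0.25, adjusted p = 5.2e-05), whereas the responses of siELMO1 and siNT differed by 0.07 (95% interval −0.49 to 0.62, adjusted p = 0.874). The order of the groups therefore changed with time.

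At 0 h siELMO1 held the most F3, 2.42-fold above siNT (log2 1.28, adjusted p = 1.5e-05) and 1.75-fold above Mock (log2 0.81, adjusted p = 0.00147). At 24 h Mock held the most, 1.96-fold above siELMO1 (log2 of siELMO1 against Mock −0.97, adjusted p = 1.9e-04) and 4.98-fold above siNT (log2 of siNT against Mock −2.32, adjusted p = 2.0e-08). siELMO1 remained 2.54-fold above siNT at 24 h (log2 1.35, adjusted p = 7.8e-06). The values rest on few counts, since F3 had 44 to 125 estimated counts in the libraries at 0 h and 75 to 516 in those at 24 h. In siNT against Mock at 0 h the log2 difference was −0.47 with an adjusted p of 0.0521. It passed the threshold without Mock 0 h replicate 2, Mock 24 h replicate 1, siNT 24 h replicate 1 or 2, or siELMO1 24 h replicate 3, with adjusted p of 0.0360, 0.0483, 0.0323, 0.0426 and 0.0329, and with library totals (0.0316) and upper-quartile factors (0.0411).

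The 250 bases before the start are shown for F3 and TFPI2, the 2 members whose levels differed most over the libraries. The sequences are those of RefSeq (GRCh38.p14), written 5′ to 3′ along the gene, and capitals mark every match to a motif searched on both strands. The motifs were AP-1 (TGANTCA), the κB motif, the interferon response core (GAAA, any 2 bases, GAAA), the KLF motif CCACCC, the GC box GGGCGG and the TATA box TATAAA. The windows lie at chr1:94541760-94542009 for F3 and chr7:93890754-93891003 for TFPI2, both on the minus strand.
F3: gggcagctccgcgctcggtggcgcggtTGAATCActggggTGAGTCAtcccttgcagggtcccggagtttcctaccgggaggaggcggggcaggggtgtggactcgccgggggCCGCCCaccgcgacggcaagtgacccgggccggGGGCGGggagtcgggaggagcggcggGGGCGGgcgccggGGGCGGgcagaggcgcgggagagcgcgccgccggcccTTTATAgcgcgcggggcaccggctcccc
TFPI2: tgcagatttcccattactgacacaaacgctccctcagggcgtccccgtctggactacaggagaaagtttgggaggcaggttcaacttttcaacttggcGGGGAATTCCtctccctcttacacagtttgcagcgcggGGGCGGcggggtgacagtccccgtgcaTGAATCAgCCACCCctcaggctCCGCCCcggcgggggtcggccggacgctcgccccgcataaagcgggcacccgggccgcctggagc

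In the F3 window the AP-1 matches begin at −223 and −210 from the start, with 4 GC boxes between −137 and −60 and a TATA match on the other strand at −28. The TFPI2 window holds a κB match at −152, an AP-1 match at −87, a KLF match at −79 and 2 GC boxes at −114 and −65. Among 35116 promoter windows of this length, 6.57% held the AP-1 motif, 5.21% the κB motif, 3.02% the interferon response core, 31.3% the KLF motif, 42.6% the GC box and 10.7% the TATA box. Windows were found for 7 of the 9 genes, with 2 windows for PLAU, and not for THBD and PLAT. AP-1 also matched in the PLAUR window at −186, and none of the windows found held the interferon response core. Neither of the 2 PLAU windows held an AP-1 match. These matches describe letters in the windows. Binding was not measured, and the part of the motifs in the responses was not tested.

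Of the related inhibitors TFPI and TFPI2, TFPI2 responded strongly and the response of TFPI did not pass the test in any transfection. TFPI2 (ENSG00000105825.14, chr7:93885396-93890753, minus strand), an inhibitor of plasmin and other proteases that is related to TFPI, had 0 h values of 4.86, 4.71 and 4.88 CPM with reagent alone (Mock), 3.01, 2.18 and 3.05 CPM under siNT and 12.4, 12.4 and 14.7 CPM under siELMO1. By 24 h the values were 42.3, 34.2 and 39.4 CPM in Mock, 18.8, 20.2 and 17.9 CPM under siNT and 76.3, 72.9 and 54.1 CPM under siELMO1. At both times siELMO1 lay above Mock and Mock above siNT, with no overlap. The response was 8.02-fold in Mock (log2 3.00, SE 0.13, adjusted p = 2.0e-12), 6.88-fold in siNT (log2 2.78, SE 0.14, adjusted p = 2.4e-11) and 5.15-fold in siELMO1 (log2 2.36, SE 0.13, adjusted p = 3.7e-11). The response in siELMO1 was smaller than in Mock by 0.64 on the log2 scale (difference −0.64, SE 0.18, adjusted p = 0.0122), and its difference from siNT of −0.42 had an adjusted p of 0.0915, or 0.0482 without siELMO1 24 h replicate 1.

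Against siNT, TFPI2 was 4.77-fold higher in siELMO1 at 0 h (log2 2.25, SE 0.14, adjusted p = 2.2e-10) and 3.57-fold higher at 24 h (log2 1.84, SE 0.12, adjusted p = 2.1e-09). Against Mock it was 2.73-fold higher at 0 h (adjusted p = 6.4e-08) and 1.76-fold higher at 24 h (adjusted p = 2.7e-05). In siNT it was 1.75-fold below Mock at 0 h (adjusted p = 1.6e-04) and 2.03-fold below at 24 h (adjusted p = 2.3e-06). The gene overlaps GNGT1 on the other strand.

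TFPI (ENSG00000003436.16, chr2:187464230-187565760, minus strand) had 0 h values of 281, 283 and 289 CPM with reagent alone (Mock), 253, 259 and 256 CPM under siNT and 325, 367 and 378 CPM under siELMO1. At 24 h the values were 314, 239 and 326 CPM, 252, 225 and 255 CPM, and 364, 347 and 434 CPM. The siELMO1 libraries lay above all others at their time, and the values at 24 h overlapped those at 0 h in each transfection. TFPI was 1.39-fold higher in siELMO1 than in siNT at 0 h (log2 0.48, SE 0.10, adjusted p = 4.0e-04) and 1.57-fold higher at 24 h (log2 0.65, SE 0.10, adjusted p = 3.1e-05). Against Mock it was 1.25-fold higher at 0 h (adjusted p = 0.0104), a call lost without Mock 0 h replicate 1 (adjusted p = 0.0520), and 1.30-fold higher at 24 h (adjusted p = 0.00431). The responses were 0.04, −0.07 and 0.10 on the log2 scale in Mock, siNT and siELMO1, with 95% intervals within −0.28 to 0.31. At 24 h siNT was below Mock by 0.26 (log2 −0.26, adjusted p = 0.0332), but the libraries overlapped. That call was lost without Mock 24 h replicate 1 or 3 or siNT 24 h replicate 1 or 2, with adjusted p of 0.108, 0.172, 0.0510 and 0.137, and with only the groups compared (0.0746). TFPI overlaps CALCRL-AS1 on the other strand.

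Thrombomodulin fell after poly(I:C) in Mock and in siELMO1, and its mean in siNT was the same at both times. THBD (ENSG00000178726.7, chr20:23045633-23049672, minus strand), a gene with 1 exon, was at 218, 219 and 208 CPM in Mock at 0 h against 88.6, 106 and 69.6 CPM at 24 h. The siNT values were 195, 200 and 196 CPM at 0 h against 210, 218 and 162 CPM at 24 h. The siELMO1 values were 168, 165 and 160 CPM at 0 h against 59.2, 58.6 and 44.4 CPM at 24 h. At 24 h the 3 siNT libraries thus lay in the range of the libraries at 0 h, above every Mock and siELMO1 library of that time. The fall was 2.44-fold in Mock (log2 −1.29, SE 0.13, adjusted p = 1.2e-07) and 3.04-fold in siELMO1 (log2 −1.60, SE 0.13, adjusted p = 1.2e-08), and in siNT the log2 difference of 24 h against 0 h had a 95% interval of −0.27 to 0.27 (adjusted p = 0.999).

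The THBD responses of siELMO1 and siNT differed by −1.60 (SE 0.18, adjusted p = 2.4e-06), those of siNT and Mock by 1.29 (SE 0.18, adjusted p = 3.4e-05), and those of siELMO1 and Mock by −0.31 (95% interval −0.70 to 0.07, adjusted p = 0.218; 0.0449 without Mock 24 h replicate 3). At 24 h THBD in siELMO1 was 3.64-fold below siNT (log2 −1.86, SE 0.13, adjusted p = 3.9e-09) and 1.63-fold below Mock (log2 −0.70, SE 0.13, adjusted p = 2.7e-04), while siNT was 2.24-fold above Mock (log2 1.16, adjusted p = 1.0e-06). At 0 h it was 1.31-fold lower in siELMO1 than in Mock (log2 −0.39, adjusted p = 0.0168), a call lost without siELMO1 0 h replicate 3 (adjusted p = 0.0504). Against siNT at 0 h the log2 difference was −0.26 with an adjusted p of 0.0831 and no overlap of the libraries. The adjusted p was 0.00151 with only the groups compared, and 0.0493 or 0.0408 without Mock 24 h replicate 2 or 3.

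**Figure D2:**
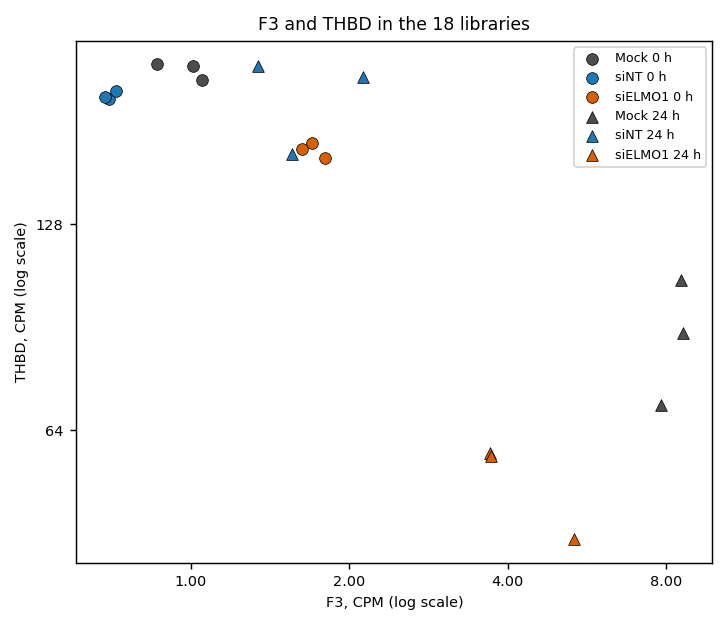
THBD against F3 in the 18 libraries, in CPM on log scales; circles are 0 h and triangles 24 h, and colours mark the transfection. Mock and siELMO1 at 24 h lie at high F3 and low THBD, and siNT at 24 h lies among the libraries at 0 h for THBD, at 162 to 218 CPM.

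Over the 18 libraries F3 and THBD had a Pearson r of −0.81 on the log2 scale, which is given as a description since libraries of 1 group share their treatment. The mean F3 level was 8.32 ± 0.441 CPM in Mock, 4.25 ± 0.950 CPM in siELMO1 and 1.67 ± 0.403 CPM in siNT at 24 h, and the THBD means in that order were 88.1 ± 18.2, 54.1 ± 8.39 and 197 ± 30.2 CPM. The group with the most F3 was therefore not the group with the least THBD.

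The protein C receptor changed little with poly(I:C) and was higher in siELMO1. PROCR (ENSG00000101000.6, chr20:35172072-35216240, plus strand) had 0 h values of 216, 205 and 225 CPM with reagent alone (Mock), 205, 216 and 215 CPM under siNT and 300, 291 and 296 CPM under siELMO1. After 24 h they stood at 186, 178 and 206 CPM in Mock, 226, 230 and 264 CPM under siNT and 269, 273 and 292 CPM under siELMO1. No siELMO1 library overlapped a control library of its time. PROCR was 1.39-fold above siNT (log2 0.48, SE 0.06, adjusted p = 3.3e-06) and 1.37-fold above Mock (log2 0.46, adjusted p = 8.7e-06) at 0 h. At 24 h it was 1.46-fold above Mock (log2 0.55, adjusted p = 1.7e-06) and 1.16-fold above siNT (log2 0.21, adjusted p = 0.0086), the latter a call lost without siNT 24 h replicate 1 (adjusted p = 0.0512).

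Its responses were small. PROCR fell by 0.18 on the log2 scale in Mock (adjusted p = 0.0208; 0.104 without Mock 24 h replicate 2) and rose by 0.18 in siNT (adjusted p = 0.0247; 0.0894 without siNT 0 h replicate 1 and 0.168 without siNT 24 h replicate 3). These responses differed by 0.35 (SE 0.09, adjusted p = 0.00536). The response in siELMO1 was −0.09 (adjusted p = 0.257), and its difference from siNT of −0.26 (adjusted p = 0.0286) lost its call without siNT 0 h replicate 1, siNT 24 h replicate 3 or siELMO1 24 h replicate 1 or 2, with adjusted p of 0.0694, 0.0810, 0.0688 and 0.0586, and with every gene of at least 1 count (0.134). The rise of PROCR in siNT also lost its call with library totals (log2 0.14), upper-quartile factors (0.13), every gene of at least 1 count (0.17) and only the groups compared (0.16). PROCR overlaps MMP24OS and another annotated gene on the other strand.

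Protein S fell after poly(I:C) in all 3 transfections, most in Mock. PROS1 (ENSG00000184500.16, chr3:93873051-93980003, minus strand) was at 33.8, 32.2 and 34.3 CPM in Mock at 0 h against 18.9, 17.9 and 22.5 CPM at 24 h (log2 −0.76, SE 0.07, adjusted p = 9.0e-08). The siNT values were 41.5, 36.6 and 41.1 CPM at 0 h against 33.2, 33.1 and 34.1 CPM at 24 h (log2 −0.25, SE 0.07, adjusted p = 0.00807). The siELMO1 values were 41.0, 39.0 and 43.5 CPM at 0 h against 28.5, 27.8 and 30.1 CPM at 24 h (log2 −0.52, SE 0.07, adjusted p = 1.1e-05). The fall in siNT was smaller than in Mock by 0.51 (SE 0.10, adjusted p = 0.00111). The difference between siELMO1 and siNT was −0.27 with an adjusted p of 0.0529, which was 0.0200 to 0.0490 when siNT 0 h replicate 1, siELMO1 0 h replicate 2, Mock 24 h replicate 2 or 3, or siELMO1 24 h replicate 3 was left out. It also passed the threshold with library totals (adjusted p = 0.0395), upper-quartile factors (0.0385), only the groups compared (0.0388) and limma-voom (0.0395). Between siELMO1 and Mock it was 0.24 (adjusted p = 0.0963), or 0.30 with library totals (adjusted p = 0.0439) and 0.34 without Mock 24 h replicate 3 (adjusted p = 0.0104).

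At 24 h PROS1 was higher than in Mock in siELMO1 (log2 0.54, SE 0.07, adjusted p = 1.3e-05) and in siNT (log2 0.76, SE 0.07, adjusted p = 2.5e-07), with no overlap. At 0 h the corresponding values were 0.30 (adjusted p = 0.0022) and 0.25 (adjusted p = 0.00792), the latter lost without Mock 0 h replicate 2 (adjusted p = 0.0779). In siELMO1 against siNT at 24 h the log2 difference was −0.22 (adjusted p = 0.0192). This call was lost without siNT 24 h replicate 3 or siELMO1 24 h replicate 1 or 2, with adjusted p of 0.0518, 0.0511 and 0.0697, and 0.0727 when every gene with at least 1 count was kept. PROS1 overlaps Y_RNA and RNU6-511P on the other strand.

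Tissue plasminogen activator rose in siNT and did not pass the test for a change in Mock or siELMO1. The part of cell death in the rise in siNT was not tested. PLAT (ENSG00000104368.19, chr8:42174718-42207709, minus strand) was at 111, 108 and 105 CPM in Mock at 0 h against 99.1, 96.8 and 87.8 CPM at 24 h. The siNT values were 141, 137 and 137 CPM at 0 h against 415, 438 and 354 CPM at 24 h. The siELMO1 values were 193, 180 and 181 CPM at 0 h against 180, 175 and 140 CPM at 24 h. The 3 siNT libraries at 24 h lay far above the other 15. The rise in siNT was 2.91-fold (log2 1.54, SE 0.08, adjusted p = 7.2e-11), while the responses were −0.20 in Mock (95% interval −0.37 to −0.02, adjusted p = 0.0526) and −0.16 in siELMO1 (95% interval −0.34 to 0.01, adjusted p = 0.110; 0.0445 without siELMO1 24 h replicate 1, 0.0318 with library totals and 0.0319 with upper-quartile factors). The response in Mock passed the threshold with DESeq2 (log2 −0.21, adjusted p = 0.0174) and under 10 other of the 26 alternative settings, among them leaving out Mock 0 h replicate 3, Mock 24 h replicate 1, siNT 24 h replicate 2 or 3, or siELMO1 24 h replicate 1 or 3.

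The PLAT response in siELMO1 was below that in siNT by 1.70 on the log2 scale (difference −1.70, SE 0.12, adjusted p = 5.4e-09), and that in siNT was above Mock by 1.73 (SE 0.12, adjusted p = 1.3e-08). Between siELMO1 and Mock the difference was 0.03 (95% interval −0.22 to 0.28, adjusted p = 0.871). At 24 h PLAT was 4.25-fold higher in siNT than in Mock (log2 2.09, SE 0.09, adjusted p = 1.3e-11) and 2.43-fold lower in siELMO1 than in siNT (log2 −1.28, SE 0.08, adjusted p = 1.5e-09). Against Mock it was higher in siELMO1 by 1.71-fold at 0 h (log2 0.77, adjusted p = 5.5e-07) and by 1.75-fold at 24 h (log2 0.80, adjusted p = 5.7e-07). At 0 h siELMO1 also exceeded siNT (log2 0.42, adjusted p = 2.8e-04) and siNT exceeded Mock (log2 0.35, adjusted p = 0.0018).

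Urokinase and its receptor rose after poly(I:C) in all 3 transfections. PLAU (ENSG00000122861.16, chr10:73909177-73917496, plus strand) had 0 h values of 159, 165 and 157 CPM with reagent alone (Mock), 359, 369 and 357 CPM under siNT and 221, 195 and 194 CPM under siELMO1. At 24 h the libraries held 420, 422 and 372 CPM in Mock, 668, 700 and 628 CPM under siNT and 475, 463 and 383 CPM under siELMO1. siNT had the highest levels at both times, and Mock and siELMO1 overlapped at 24 h. The response was 2.52-fold in Mock (log2 1.34, SE 0.08, adjusted p = 5.8e-11), 1.84-fold in siNT (log2 0.88, SE 0.07, adjusted p = 2.3e-08) and 2.17-fold in siELMO1 (log2 1.12, SE 0.08, adjusted p = 9.0e-10). It was smaller in siNT than in Mock (difference −0.46, SE 0.11, adjusted p = 0.00303). The difference between siELMO1 and siNT was 0.24 (adjusted p = 0.0946), with an adjusted p of 0.0266 without siELMO1 0 h replicate 1, the library that stood apart, of 0.0101 without siELMO1 24 h replicate 3, and of 0.0434 with DESeq2.

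The largest PLAU difference between transfections was already present at 0 h, when siNT was 2.25-fold above Mock (log2 1.17, SE 0.08, adjusted p = 1.0e-09) and siELMO1 1.78-fold below siNT (log2 −0.83, SE 0.08, adjusted p = 2.8e-08). At 24 h the corresponding log2 values were 0.72 (adjusted p = 5.0e-07) and −0.60 (adjusted p = 3.5e-06). Against Mock, PLAU in siELMO1 was 1.27-fold higher at 0 h (log2 0.34, adjusted p = 0.00102), and at 24 h the log2 difference was 0.12 (95% interval −0.04 to 0.28, adjusted p = 0.205), or 0.21 with an adjusted p of 0.0181 without siELMO1 24 h replicate 3. The lncRNA C10orf55 is annotated over PLAU on the other strand.

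PLAUR (ENSG00000011422.12, chr19:43646095-43670547, minus strand) had 0 h values of 80.2, 81.7 and 80.3 CPM with reagent alone (Mock), 85.5, 88.3 and 82.4 CPM under siNT and 82.1, 85.2 and 89.6 CPM under siELMO1. By 24 h the values were 213, 206 and 234 CPM in Mock, 251, 263 and 257 CPM under siNT and 173, 175 and 177 CPM under siELMO1. The 3 transfections were close at 0 h and did not overlap at 24 h. At 0 h no comparison of transfections passed the test, and the 95% intervals of the log2 differences lay within −0.10 to 0.19. The response was 2.69-fold in Mock (log2 1.43, SE 0.05, adjusted p = 4.4e-14), 3.01-fold in siNT (log2 1.59, SE 0.05, adjusted p = 2.4e-14) and 2.04-fold in siELMO1 (log2 1.03, SE 0.05, adjusted p = 6.0e-12). The response in siELMO1 was below that in siNT (difference −0.56, SE 0.07, adjusted p = 5.2e-06) and below that in Mock (difference −0.40, SE 0.07, adjusted p = 2.7e-04). Between siNT and Mock the difference was 0.16 (adjusted p = 0.0889), or 0.21 without Mock 24 h replicate 3 (adjusted p = 0.0174). It also passed the threshold with library totals (adjusted p = 0.00877), upper-quartile factors (0.0445) and only the groups compared (0.047). At 24 h PLAUR in siELMO1 was therefore 1.47-fold below siNT (adjusted p = 4.1e-08) and 1.25-fold below Mock (adjusted p = 3.4e-05), and siNT was 1.18-fold above Mock (adjusted p = 4.7e-04).

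**Figure D3:**
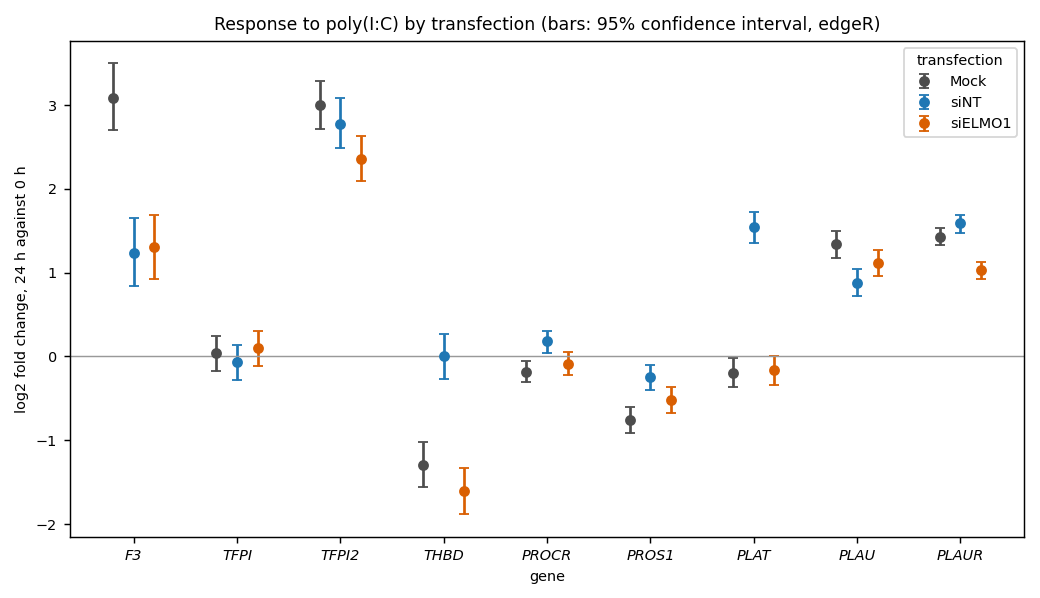
Log2 fold change of 24 h against 0 h for each of the 9 genes in the 3 transfections; points are edgeR estimates and bars their 95% confidence intervals. The responses of F3 in Mock (3.09), of PLAT in siNT (1.54) and of THBD in siNT (0.00) lie apart from those of the same gene in the other transfections.

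Read over the 9 genes, the response to poly(I:C) was large in size but not of 1 direction. The 9 genes were chosen with earlier results of these data known. The shares of all genes set beside them, here and below, are therefore a description and no test of the 9 as a set. In Mock 4 genes rose (F3, TFPI2, PLAU, PLAUR) and 3 fell (THBD, PROCR, PROS1), where 30.7% of the 15167 genes tested were higher and 29.6% lower at an adjusted p under 0.05. A fold change over 2 was reached by 5 of the 9, against 14.5% of all genes. In siNT 6 genes rose (F3, TFPI2, PROCR, PLAT, PLAU, PLAUR) and 1 fell (PROS1), against 28.6% and 25.2% of all genes, and 4 exceeded a fold change of 2, against 9.42%. In siELMO1 4 rose (F3, TFPI2, PLAU, PLAUR) and 2 fell (THBD, PROS1), against 28.0% and 26.9%, and 5 exceeded a fold change of 2, against 11.4%. The median absolute log2 response of the 9 genes was 1.29 in Mock, 0.88 in siNT and 1.03 in siELMO1, beside 0.35, 0.31 and 0.31 over all genes tested.

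Between siELMO1 and siNT at 0 h, 5 genes were higher in siELMO1 (F3, TFPI, TFPI2, PROCR, PLAT) and 1 was lower (PLAU). Over all genes tested 31.3% were higher and 31.3% lower, and a fold change over 2 was reached by 2 of the 9 genes and by 14.6% of all genes. Against Mock at 0 h 7 were higher, PLAU and PROS1 in addition, and THBD was lower, where 27.9% of all genes were higher and 22.4% lower. TFPI2 alone exceeded a fold change of 2 there, beside 7.79% of all genes. The siELMO1 libraries are the same in both comparisons.

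At 24 h all 9 genes differed between siELMO1 and siNT. Higher in siELMO1 were the 4 genes F3, TFPI, TFPI2 and PROCR, where 26.0% of all genes were higher, and lower were the 5 genes THBD, PROS1, PLAT, PLAU and PLAUR, where 26.5% were lower. Both plasminogen activators and the urokinase receptor were thus on the lower side, and tissue factor, its inhibitor TFPI and the related TFPI2 on the higher side. A fold change over 2 was found for 4 of the 9 (F3, TFPI2, THBD, PLAT), against 7.31% of all genes. Against Mock at 24 h 5 were higher (TFPI, TFPI2, PROCR, PROS1, PLAT) and 3 lower (F3, THBD, PLAUR), beside 21.6% and 22.0% of all genes, and none of the 9 exceeded a fold change of 2, beside 5.09%. TFPI, TFPI2 and PROCR were higher and THBD and PLAUR lower in siELMO1 than in both controls at 24 h.

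The non-targeting siRNA itself went with differences from Mock. At 0 h 3 genes were higher in siNT (PROS1, PLAT, PLAU), beside 27.6% of all genes, and TFPI2 was lower, beside 24.0%. PLAU alone exceeded a fold change of 2, beside 6.51%. With only the groups compared, THBD (log2 −0.16, adjusted p = 0.00126) and TFPI (log2 −0.18, adjusted p = 1.7e-04) were lower in siNT as well. At 24 h all 9 differed, 6 higher in siNT (THBD, PROCR, PROS1, PLAT, PLAU, PLAUR), beside 25.2% of all genes, and 3 lower (F3, TFPI, TFPI2), beside 24.9%. A fold change over 2 was found for F3, TFPI2, THBD and PLAT, 4 of the 9, beside 6.72% of all genes. The median absolute log2 difference at 24 h was 0.76 over the 9 genes and 0.28 over all genes.

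Tested as an interaction, the response of siELMO1 differed from that of siNT for 4 of the 9 genes (THBD, PROCR, PLAT, PLAUR), all more negative in siELMO1, beside 34.5% of all genes in either direction. The response of siNT differed from that of Mock for 6 genes (F3, PLAU lower, and THBD, PROCR, PROS1, PLAT higher in siNT), beside 31.0%. The response of siELMO1 differed from that of Mock for 3 genes (F3, TFPI2, PLAUR), all lower in siELMO1, beside 28.3%, a count that was 5 without Mock 24 h replicate 3. These 3 differences share libraries pairwise and are not independent of each other.

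**Figure D4:**
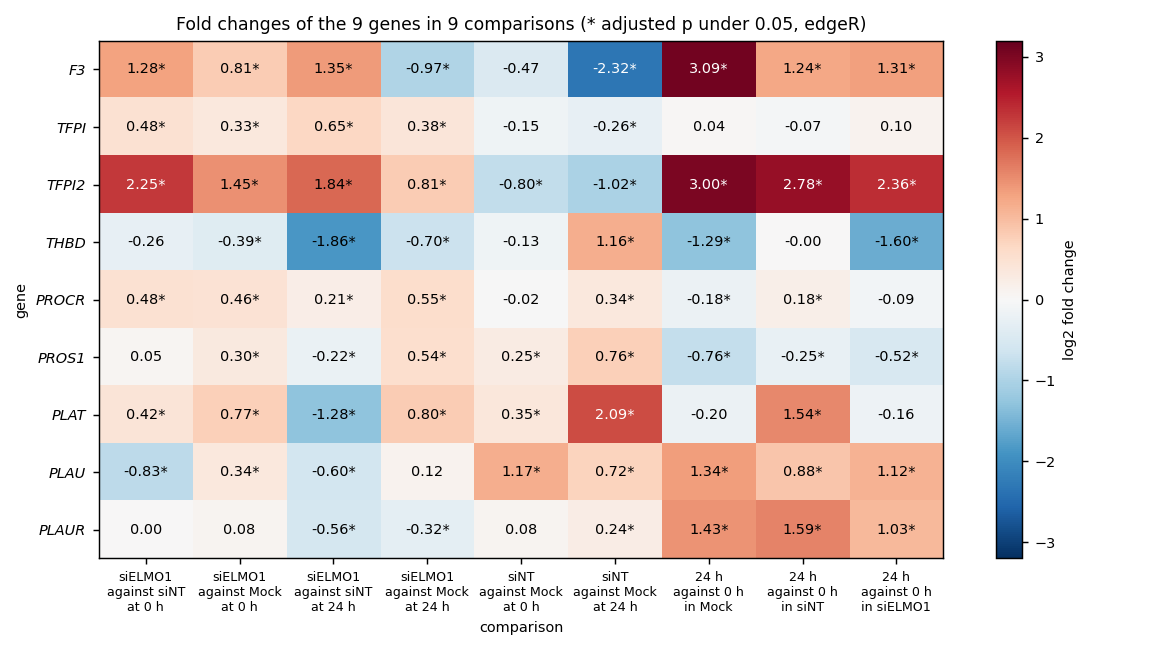
Log2 fold changes of the 9 genes (rows, by role) in 9 pairwise comparisons (columns), with the first named group against the second; colour gives the value and an asterisk an adjusted p under 0.05 (edgeR). In siELMO1 against siNT at 24 h the upper rows F3, TFPI and TFPI2 are higher (0.65 to 1.84) and PLAT, PLAU and PLAUR lower (−1.28 to −0.56).

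Other genes of clotting and clot removal were followed in lists fixed for this description, 54 genes in all, of which 32 could be tested. The other 22, among them F7, F11, F13A1, F13B and KLKB1, which were listed at 0 in every library, did not exceed 0.818 CPM. Transcripts of most clotting proteins that the liver makes were therefore nearly absent, and of 16 clotting factors and cofactors 4 were tested. VWF (von Willebrand factor, which tethers platelets) had a mean of 13.1 ± 0.200 CPM under siELMO1 at 0 h, and of 5.58 ± 0.400 and 3.77 ± 0.340 CPM under Mock and siNT (log2 1.23, adjusted p = 6.1e-04 and log2 1.79, adjusted p = 1.1e-05). At 24 h it was at 18.0, 19.8 and 42.8 CPM in siELMO1, at 12.6, 7.41 and 9.36 CPM in Mock and at 4.35, 3.94 and 5.54 CPM in siNT. On the log2 scale siELMO1 then exceeded Mock by 1.46 (adjusted p = 1.3e-04), 0.95 without siELMO1 24 h replicate 3, and siNT by 2.54 (adjusted p = 4.1e-07). FGA, the fibrinogen alpha chain, rose in all 3 transfections, by log2 2.06 in Mock (adjusted p = 8.8e-07), 1.25 in siNT (adjusted p = 2.8e-04) and 2.00 in siELMO1 (adjusted p = 2.2e-06), from 0.646 to 0.846 CPM up to 2.02 to 3.39 CPM in group means. F8 (factor VIII) fell in Mock (log2 −1.08, adjusted p = 4.1e-04) and in siNT (log2 −0.68, adjusted p = 0.013), and its response in siELMO1 was −0.17 (adjusted p = 0.53). At 24 h F8 was higher than in Mock in siELMO1 (log2 1.14, adjusted p = 4.5e-04) and in siNT (log2 0.78, adjusted p = 0.008).

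Of 7 listed inhibitors of the plasminogen system, all 3 that could be tested rose after poly(I:C) in every transfection, SERPINB2 and SERPINE2 among them, where 30.7%, 28.6% and 28.0% of all genes rose in Mock, siNT and siELMO1. SERPINB2 (PAI-2, an inhibitor of urokinase) was lowest in siELMO1 at both times. It was at 156 ± 10.9 CPM in siELMO1 at 24 h, against 604 ± 60.6 CPM in Mock (log2 −1.95, adjusted p = 3.0e-11) and 897 ± 86.0 CPM in siNT (log2 −2.52, adjusted p = 1.2e-12). Its responses were 2.31 in Mock (adjusted p = 8.3e-14), 2.40 in siNT (adjusted p = 1.1e-13) and 1.47 in siELMO1 (adjusted p = 5.6e-11). SERPINE2, which inhibits thrombin and the plasminogen activators, rose by log2 1.69 in Mock (adjusted p = 1.5e-11), 0.84 in siNT (adjusted p = 3.3e-07) and 1.22 in siELMO1 (adjusted p = 1.5e-09). Unlike SERPINB2, SERPINE2 was higher in siELMO1 than in siNT, at 0 h (log2 0.99, adjusted p = 2.3e-08) and at 24 h (log2 1.38, adjusted p = 9.1e-10). Against Mock it was higher at 0 h (log2 0.53, adjusted p = 6.3e-05), and at 24 h the log2 difference was 0.06 (adjusted p = 0.594).

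The receptors that thrombin and related proteases cleave were higher in siELMO1. All 4 passed the test against both controls at 0 h and against siNT at 24 h, and 3 passed it against Mock at 24 h. Of all genes 31.3% were higher in siELMO1 than in siNT and 27.9% higher than in Mock at 0 h, and 26.0% and 21.6% at 24 h. F2R (PAR1, the main thrombin receptor) was at 450, 430 and 436 CPM in siELMO1 at 0 h, above 213, 218 and 224 CPM in Mock (log2 1.01, adjusted p = 1.1e-06) and 168, 152 and 171 CPM in siNT (log2 1.42, adjusted p = 8.5e-09). At 24 h it was at 267, 265 and 296 CPM in siELMO1, above 93.7, 60.4 and 92.8 CPM in Mock (log2 1.75, adjusted p = 4.0e-09) and 100, 90.8 and 111 CPM in siNT (log2 1.46, adjusted p = 2.0e-08). F2R fell after poly(I:C) in Mock (log2 −1.41, adjusted p = 1.2e-08), siNT (log2 −0.70, adjusted p = 6.3e-05) and siELMO1 (log2 −0.67, adjusted p = 9.2e-05). At 24 h F2RL1 (PAR2) was higher in siELMO1 than in siNT by log2 0.94 (adjusted p = 4.6e-06), and F2RL2 (PAR3) by 0.59 (adjusted p = 1.9e-04). F2RL3 (PAR4) was nearly absent outside siELMO1, with 0.702 to 1.60 CPM in siELMO1 at 0 h and 0.288 to 1.44 CPM at 24 h, where the control libraries held 0 to 0.361 CPM. Its call against Mock at 0 h was lost without Mock 0 h replicate 2 (adjusted p = 0.0503), and at 24 h its adjusted p of 0.0770 against Mock was 0.0457 without Mock 24 h replicate 1. The 24 h difference of F2RL3 from Mock also passed the threshold with the replicate block and with limma-voom.

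Among the remaining lists, NOS3, the endothelial nitric oxide synthase that restrains platelets, fell after poly(I:C) in Mock and siELMO1, as THBD did, and rose in siNT. It was at 333 ± 6.08 CPM in Mock at 0 h and 173 ± 13.8 CPM at 24 h (log2 −0.95, adjusted p = 1.1e-10), at 299 ± 5.95 and 363 ± 27.1 CPM in siNT (log2 0.28, adjusted p = 3.7e-04) and at 237 ± 4.64 and 149 ± 2.89 CPM in siELMO1 (log2 −0.67, adjusted p = 1.6e-08). The response of siELMO1 was below that of siNT by 0.95 (log2 difference −0.95, adjusted p = 5.3e-08), and that of siNT above that of Mock by 1.23 (adjusted p = 9.1e-09). Of the 4 endothelial genes of platelet control, 1 rose and 1 fell in Mock and in siELMO1, and 2 rose in siNT. Of all genes 30.7% rose and 29.6% fell in Mock, 28.0% and 26.9% in siELMO1, and 28.6% rose in siNT. NT5E, which makes adenosine, was the one that rose in all 3, by log2 1.18 (adjusted p = 2.6e-12), 0.84 (adjusted p = 5.1e-10) and 0.79 (adjusted p = 9.0e-10) in Mock, siNT and siELMO1. PTGIS, the prostacyclin synthase, reached a mean of 3.67 ± 0.798 CPM under siELMO1 at 24 h, against 0.590 ± 0.311 and 0.574 ± 0.230 CPM under Mock and siNT (log2 2.64, adjusted p = 2.6e-05 and log2 2.67, adjusted p = 1.9e-05).

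Of the 6 tested genes for plasminogen's partners on the cell surface, 5 were lower in siELMO1 than in siNT at 24 h, beside 26.5% of all genes, and 5 were higher in siNT than in Mock at that time, beside 25.2%. ANXA2, part of a surface receptor for PLAT and plasminogen, was lower in siELMO1 than in siNT at 24 h (log2 −0.61, adjusted p = 3.6e-07), as was its partner S100A10 (log2 −0.77, adjusted p = 3.8e-08) and LRP1, which clears the activators from the surface (log2 −0.47, adjusted p = 3.3e-04). GAS6, a ligand related to PROS1, and receptors of either ligand made up a list of 4 genes. Of these, 3 were higher and 1 lower in siELMO1 than in siNT at both times, beside 31.3% of all genes in each direction at 0 h and 26.0% and 26.5% at 24 h. GAS6 was higher by log2 1.44 at 0 h (adjusted p = 8.4e-07) and 1.47 at 24 h (adjusted p = 1.1e-06), and its receptor AXL was lower (log2 −1.32, adjusted p = 3.9e-13 and log2 −0.45, adjusted p = 6.9e-07). MERTK, a receptor of both ligands, was higher (log2 0.58, adjusted p = 4.9e-07 and log2 0.41, adjusted p = 5.4e-05). Of the 5 genes for the vitamin K cycle and secretion of clotting factors, 4 fell and none rose in Mock and in siNT after poly(I:C), where 29.6% and 25.2% of all genes fell. In siELMO1 1 fell and 1 rose, beside 26.9% and 28.0%. VKORC1L1, a reductase of vitamin K, changed by log2 −0.97 in Mock (adjusted p = 7.2e-11), −0.68 in siNT (adjusted p = 1.5e-08) and −0.45 in siELMO1 (adjusted p = 2.2e-06). Of the cargo receptor pair that carries factors V and VIII, MCFD2 was higher than in Mock at 24 h both in siNT (log2 0.89, adjusted p = 9.2e-10) and in siELMO1 (log2 0.88, adjusted p = 1.2e-09), and LMAN1 was higher in siELMO1 than in siNT (log2 0.56, adjusted p = 1.2e-07). Of 7 anticoagulant inhibitors and protein C pathway genes 2 were tested. SERPIND1, the thrombin inhibitor heparin cofactor II, was highest in siNT at 24 h, 3.71-fold above Mock (log2 1.89, adjusted p = 7.2e-09). In siELMO1 it was lower than in siNT (log2 −1.34, adjusted p = 2.4e-07) and higher than in Mock (log2 0.55, adjusted p = 0.00296). HS3ST1, which makes the heparan sulfate that binds antithrombin, fell in all 3 transfections (log2 −0.97, −1.08 and −0.97 in Mock, siNT and siELMO1, adjusted p = 5.4e-05, 1.5e-05 and 4.4e-05). Over all 32 tested genes 13 were higher and 10 lower in siELMO1 than in siNT at 24 h, and 8 rose and 15 fell in Mock, to be read beside the shares of all genes given above for those comparisons.

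**Figure D5:**
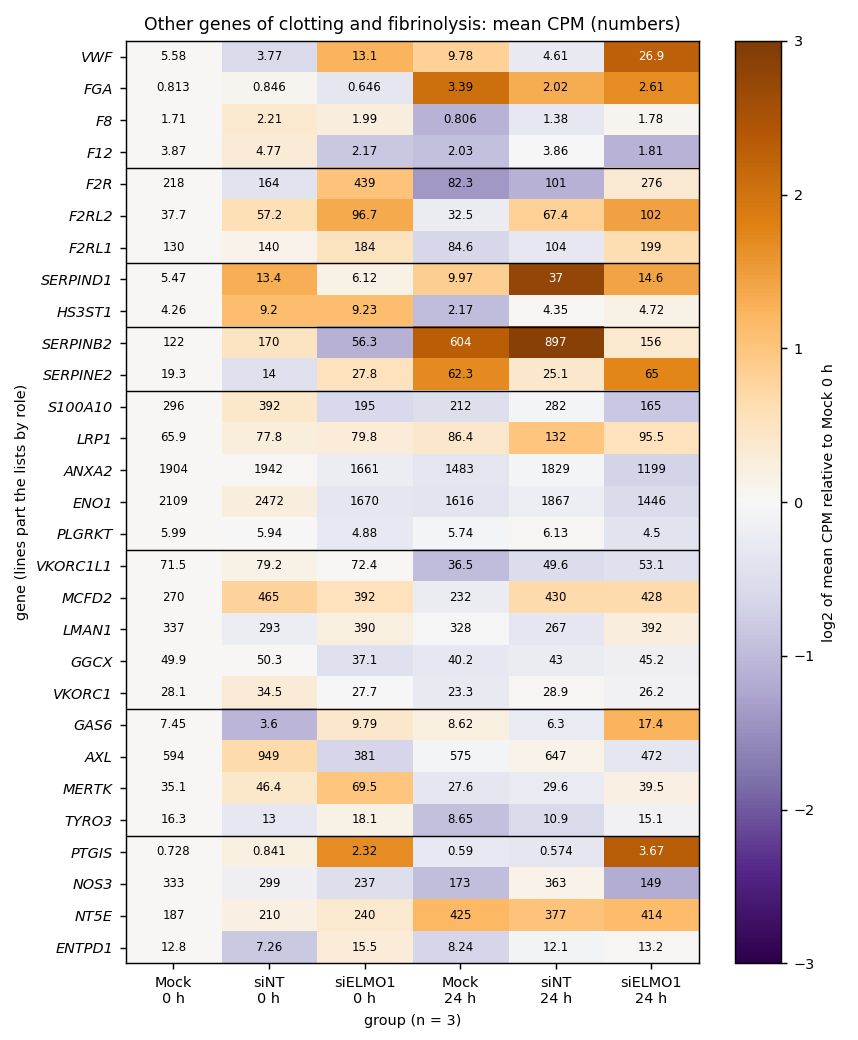
Mean CPM (numbers, n = 3) of other clotting and fibrinolysis genes with a mean of at least 1 CPM, in 6 groups; colour gives the log2 of the mean relative to Mock at 0 h, and lines part the lists by role. SERPINB2 is lower in siELMO1 (56.3 and 156 CPM) than in the other transfections at each time.

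Named for likeness over the 18 libraries, on the log2 scale and among 12876 genes with a mean of at least 1 CPM, genes near to F3 were CREBRF (Pearson r = 0.983) and GOLPH3L (0.973). The 24 h means of CREBRF were 48.8, 26.9 and 36.9 CPM under Mock, siNT and siELMO1. Near to THBD were ADK and ANXA2 (0.967 each), to PLAUR the interferon pathway gene IRF9 (0.986) and NAV3 (0.981), and to TFPI2 the genes ABCA1 (0.988) and ERAP1 (0.986). Near to PLAU were OAF (0.974) and NECAP1 (0.969), to PROS1 GLI2 (0.967), to PROCR PLXNB1 (0.956) and LAMB1 (0.946), and to TFPI LTBP1 (0.932) and ADAM10 (0.926). For PLAT the nearest gene was RHOC at 0.903, with group means of 254 CPM in siNT at 24 h and 190 to 225 CPM elsewhere. Among the 9 genes themselves the highest values were 0.87 for F3 and TFPI2 and 0.84 for PLAU and PLAUR, and the lowest was −0.84 for F3 and PROS1. These values describe libraries that share their treatments.

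At the level of transcripts, 3 genes were nearly a single transcript in the deposited matrix. THBD has 1 transcript, PROCR-201 held 99.1% of the counts of its gene, and PLAU-201 held 94.7%. F3-201 held 94.1% of the F3 counts over all libraries, with 34.1% to 97.8% in the siNT libraries at 0 h, where counts were lowest. TFPI2-206, a shorter transcript of TFPI2, held 0% in every library at 0 h, 0% to 28.0% in Mock at 24 h, 0% to 0.0882% in siNT and 0% to 32.5% in siELMO1. PLAUR-203 held 42.8% ± 5.18 of the PLAUR counts in Mock, 43.7% ± 4.00 in siNT and 62.3% ± 8.75 in siELMO1 at 0 h, and 57.9% to 59.8% in group means at 24 h (SD, n = 3). The shares of PLAT-201 ranged from 9.61% to 63.3% among the Mock libraries at 0 h and from 0.838% to 68.7% among the siNT libraries at 0 h, so replicates spread too far for a comparison of its transcripts. TFPI-201 ranged from 40.4% to 85.0% and PROS1-202 from 15.7% to 75.5% in Mock at 0 h, and for these genes as well the gene counts alone were compared.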

How the data were processed

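The samples were 18 RNA libraries of EA.hy926 cells, 3 for each of 6 groups taken from the sample labels. The deposited estimated counts come from STAR alignments (GRCh38) that the authors passed to StringTie with GENCODE v44. They are given per gene and per transcript, as whole numbers without normalization, and StringTie derives them from coverage, so they are not read pairs counted one by one. The read length given to the conversion into counts, and any use of strand in counting, are not given in the sources used here, so genes that overlap another gene on the other strand are uncertain. The filter kept 15167 genes, those whose counts summed to at least 100 and reached 1 CPM in some library. The model was fitted in edgeR 4.0.16 under R 4.3.3 (TMM factors 0.958 to 1.06; 6 group means; biological coefficient of variation 12.2%), on all 18 libraries. The quasi-likelihood test was applied to 9 pairwise comparisons and 3 differences of responses, with Benjamini-Hochberg adjustment over all 15167 genes. P-values are two-sided, a gene was called at an adjusted p under 0.05, and SE is the size of the estimate divided by the square root of F. With 3 libraries per group a permutation test cannot fall below 0.10 and was not used. TPM was computed from the transcript counts and GENCODE lengths. The test was first run on simulated counts with far fewer changed genes than in these data, and no result here rests on that run.

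Named were the 9 genes, ELMO1, up to 3 genes per list with the largest fold changes and a mean of at least 1 CPM, with VWF and F2R, the 2 genes most alike to each member, and transcripts with at least 10% of the counts. Exceptions to the rule are F2RL3, the genes at 0 and the marker genes, and 2 genes that it names are not reported here. Members and lists were chosen with earlier results of these data known. The libraries of Mock and siNT at 24 h with the same replicate number deviated together (r of 0.11, 0.19 and 0.28 over 11375 genes). No other pair of groups had an r of at least 0.11 for all 3 numbers. At 24 h replicates 2 and 3 also deviated together between Mock and siELMO1 (r of 0.25 and 0.32) and between siNT and siELMO1 (0.18 and 0.34). Replicate 1 had an r of 0.02 and 0.04 there. Alternatives were DESeq2 1.42.0, limma-voom (limma 3.58.1), a replicate block, library totals, upper-quartile factors, other filters, a fit on only the 2 or 4 groups of a comparison, and leaving out every library in turn. The files hold no columns of the authors' own comparisons.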

Additional observations from a re-analysis of the deposited data

Results flagged for a closer look

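Responses to poly(I:C) that differed between transfections by the interaction test are given here as log2 differences. F3 responded less in siNT than in Mock (−1.85) and less in siELMO1 than in Mock (−1.78). The THBD response in siELMO1 lay below that in siNT (−1.60), and its response in siNT lay above that in Mock (1.29). PLAT responded less in siELMO1 than in siNT (−1.70) and more in siNT than in Mock (1.73). PLAUR responded less in siELMO1 than in siNT (−0.56) and than in Mock (−0.40). The response of PROCR was lower in siELMO1 than in siNT (−0.26) and higher in siNT than in Mock (0.35). TFPI2 responded less in siELMO1 than in Mock (−0.64), PLAU less in siNT than in Mock (−0.46), and the fall of PROS1 was smaller in siNT than in Mock (0.51). About 31.0% to 34.5% of all genes tested passed the test for siNT against Mock and for siELMO1 against siNT, and 28.3% passed it for siELMO1 against Mock.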

How the results depend on the processing

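Of 108 log2 fold changes of the 9 genes, 77 kept their direction and their side of the threshold under all 26 alternatives. Of the 31 that did not, 9 lost a call, 13 gained one, and 9 that were not called changed sign, and no called value changed sign. The changes of sign were all close to 0. For PLAUR in siELMO1 against siNT at 0 h the value was −0.02 with library totals, −0.02 with every gene of at least 1 count and −0.00087 with filterByExpr, and from −0.03 to 0.03 with 1 library left out. For TFPI in Mock, 24 h against 0 h, it was −0.08 with library totals and −0.03 with upper-quartile factors, and −0.04 to 0.17 with 1 library left out. For THBD in siNT it was 0.0049 with filterByExpr and −0.08 to 0.12 with 1 library left out. With 1 library left out the others ran from −0.0038 to 0.09 for PROS1 in siELMO1 against siNT at 0 h, −0.09 to 0.01 for PROCR in siNT against Mock at 0 h, −0.0046 to 0.16 for the TFPI response in siELMO1, −0.13 to 0.27 for F3 in siELMO1 minus siNT responses, and, in siELMO1 minus Mock responses, −0.07 to 0.14 for TFPI and −0.03 to 0.14 for PLAT. The cause was not tested.

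The number of the 9 genes (members) called stayed within 1.5 times its value in every alternative but 1. That one was for siELMO1 minus Mock responses, with 3 to 5 members when 1 library was left out. With the replicate block, 9 members were called in siNT against Mock at 24 h, as without it. In that comparison all 3 replicate numbers had an r of at least 0.11. In other comparisons the block moved the count of members from 4 to 6 for siELMO1 minus siNT responses and from 7 to 8 for the response in Mock, and by at most 1 elsewhere. With it 6 more values of the 9 genes passed the threshold, with adjusted p of 0.0207 for THBD in siELMO1 against siNT at 0 h, 0.0124 and 0.0311 for the PLAT responses in Mock and siELMO1, 0.0331 for PLAU and 0.0138 for PROS1 in siELMO1 minus siNT responses, and 0.0282 for PROS1 in siELMO1 minus Mock responses. Library totals moved the median of all genes in Mock, 24 h against 0 h, to −0.11. For other genes named by value the same alternatives were run, chosen after seeing the data, and the call on VWF in Mock (log2 0.81) was lost without Mock 24 h replicate 1 (0.55) and with limma-voom (0.76). Of those 95 results 92 kept their side of the threshold. F3, with 44 to 516 counts a library, had the widest intervals of the 9 genes.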
